A study of Mus musculus with 12 samples.

Results

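The 78 genes described here carry the symbols of protein subunits of the mitochondrial ribosome and were measured by RNA sequencing in 12 mouse whole-heart libraries. One of them, Mrps36, has since been assigned to another complex. They are the entries of the deposited gene table whose symbol begins with Mrpl or Mrps and a number, without a pseudogene ending, at a mean of 1 CPM (counts scaled to library size) or more. Of 54186 entries used, 83 carried such a symbol and 5 of these were pseudogenes. The lowest of the 78 was Mrpl23 at a mean of 5.45 CPM and the next was Mrps22 at 15.1 CPM, so a limit of 0.5 or 2 CPM selected as many. By symbol 49 are named for the large subunit (Mrpl) and 29 for the small subunit (Mrps).

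The mitochondrial ribosome translates the few messenger RNAs of the mitochondrial genome, all of which encode subunits of the respiratory chain and ATP synthase. Its ribosomal RNAs are made inside the organelle, and its proteins are encoded in the nucleus, translated in the cytosol and imported, so both genomes have to supply one particle. Some subunits descend from bacterial ribosomal proteins and others are found only in mitochondria. The heart depends on oxidative phosphorylation, and inherited defects of several subunits, MRPL3 and MRPL44 among them, cause cardiomyopathy in humans.

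The study set mice with floxed Cited4 alleles (Flox, genotype Flox/flox) beside Cited4 knockout mice (KO). KO mice carry the floxed alleles together with an aMHC-cre transgene, which is active in cardiomyocytes. None of the groups analysed here carries aMHC-cre with intact Cited4, so the KO label stands for gene loss and transgene at once. Each genotype is labelled sedentary or exercise (voluntary wheel running) over 8 weeks, with 3 libraries in each of the 4 groups and age and strain not given in the sources used here. The letter codes in the titles read against the treatment words, with an E where the word is sedentary and an S where it is exercise. The words were followed, and every exercise direction would turn if the codes were right, while the genotype comparisons would swap treatment labels. No library is tied to a named animal in the labels, and p-values here reflect only how far these libraries spread, which may be technical.

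Libraries held 17465432 to 20467300 estimated counts, of which the 78 genes took 0.353% to 0.406% and the 13 mitochondrially encoded protein genes 21% to 27.2%. Cited4, the targeted gene, lay between 10.1 and 23.9 CPM in the Flox libraries and at or below 0.241 CPM in the KO libraries, in the direction of the labels. The libraries differ in content. The mean of 16 atrial markers (Myl4, Myl7, Nppa and others) lay at 4.66, 6.95 and 7.57 log2 CPM in the sedentary-labelled KO group and between 1.29 and 5.8 in the other 9 libraries. Adipocyte markers (10 of 11 listed genes passed the filter) averaged 4.08 to 4.75 log2 CPM in KO labelled sedentary and 0.881 to 2.4 elsewhere. Of these 10, 7 lay higher and 3 lower in KO than in Flox under the sedentary label. Summed over all 11, they took 675 to 855 CPM in KO and 714 to 927 CPM in Flox with that label. Cardiomyocyte markers (15 genes) averaged 11.1 to 11.4 log2 CPM in KO labelled sedentary, 11.5 to 11.6 in Flox labelled sedentary and 11.3 to 11.6 under the exercise label, and no list had a marker at 0 over a group. Fibroblast markers (10 genes) averaged 6.47 to 6.77 log2 CPM in KO and 5.95 to 5.98 in Flox with the sedentary label, without overlap, and 6.04 to 6.89 with the exercise label. In whole-heart RNA, fewer cells of a type and less RNA per cell cannot be told apart.

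The genes lie on 17 chromosomes, 11 of them on chromosome 11 (GENCODE M21, build GRCm38). A divergent partner gene starting within 1000 bases on the other strand was present for 18 of the 78, or 23.1%, against 6.79% of all 21938 protein-coding genes. Mrps12 and Sars2, the mitochondrial seryl-tRNA synthetase, start 172 bases apart. Mrpl54 and Apba3 start 26 bases apart, and Mrpl49 starts 59 bases from Fau, whose protein is processed to a cytosolic ribosomal subunit. The gene spans of Mrps11 and Mrpl46, which belong to different subunits, overlap at their 5′ ends over 413 bases (chr7:78783119-78783531). Where exons of both lie in that stretch, short reads fit both genes unless counted by strand. Exon overlap was not checked for these genes. In RefSeq their starts lie 42 bases apart, head to head and without overlap, and the annotation behind the counts is unknown.

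Promoters are shown because members of this family share motifs of regulators of respiratory genes. RefSeq promoter sequences (GRCm38.p6, 250 bases before to 50 after the start) were matched for 69 of the 78 genes. The motif of NRF1 (GCGC, any base, TGCGC, or the reverse complement GCGCA, any base, GCGC), a regulator of nuclear genes for mitochondrial proteins, was present in 13 of 69, or 18.8%, against 7.44% of 16522 protein-coding genes. The ETS core bound by GABPA (CCGGAAG, either strand) was present in 26, or 37.7%, against 13.4%. At least one of these was found in 35, or 50.7%, against 19.2%. The YY1 motif (AAGATGG, either strand) was found in 13, or 18.8%, against 7.26%. Other motifs were not more frequent than among coding genes: 27 held CCAAT (39.1% against 42.1%), 5 the E-box CACGTG (7.25% against 9.18%), 5 TATAAA (7.25% against 14.3%) and 0 the ERR motif TCAAGGTCA (0.387% of coding genes).

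The first 3 sequences below carry NRF1 motifs and the next 2 an ETS core, in capitals. The last precedes Mrps6, the gene with the largest difference between genotypes; neither motif is written in the 124 bases shown. Each is written 5′ to 3′ on the gene's strand and ends before both the RefSeq and the GENCODE start.
Mrpl44 (chr1:79775888-79776017, plus strand): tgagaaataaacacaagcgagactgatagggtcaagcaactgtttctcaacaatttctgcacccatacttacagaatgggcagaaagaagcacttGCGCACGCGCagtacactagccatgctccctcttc
Mrpl45 (chr11:97315586-97315715, plus strand): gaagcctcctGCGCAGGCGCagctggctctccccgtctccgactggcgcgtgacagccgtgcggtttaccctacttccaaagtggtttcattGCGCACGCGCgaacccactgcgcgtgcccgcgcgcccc
Mrpl12 (chr11:120484497-120484612, plus strand): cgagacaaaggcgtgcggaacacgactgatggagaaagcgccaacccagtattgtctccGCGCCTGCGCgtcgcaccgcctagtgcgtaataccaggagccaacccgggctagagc
Mrpl22 (chr11:58171534-58171660, plus strand): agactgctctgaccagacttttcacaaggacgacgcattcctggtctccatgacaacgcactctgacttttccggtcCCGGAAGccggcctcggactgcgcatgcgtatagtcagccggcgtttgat
Mrps22 (chr9:98601680-98601809, minus strand): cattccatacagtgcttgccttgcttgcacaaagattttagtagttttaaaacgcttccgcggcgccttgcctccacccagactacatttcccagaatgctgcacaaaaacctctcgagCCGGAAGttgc
Mrps6 (chr16:92058146-92058269, plus strand): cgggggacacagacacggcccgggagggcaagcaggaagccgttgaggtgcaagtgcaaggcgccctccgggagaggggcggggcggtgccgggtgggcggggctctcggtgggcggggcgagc

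All 78 genes were measured well above the filter on low counts, with 63 to 4220 counts per library. On the CPM scale the highest were Mrpl42 (183 CPM), a mitochondria-specific subunit, Mrpl12 (149 CPM), a stalk protein, and Mrpl51 (128 CPM). The lowest were Mrpl23 (5.45 CPM), Mrps22 (15.1 CPM) and Mrps11 (16.3 CPM). Per kilobase of annotated transcript, which allows only a rough comparison of genes, the median was 33.6 CPM per kb. The length is a median over annotated transcripts, and the isoforms expressed here may differ from it. Mrpl42 (277), Mrpl30 (186) and Mrps21 (178) were highest, and Mrpl19 (5.3), Mrpl57 (6.76) and Mrpl47 (6.98) were lowest on that scale. The median per kilobase was 34.7 for the large and 30.8 for the small subunit.

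The low value of Mrpl23, a protein at the exit of the peptide tunnel, is uncertain. Its processed copy Mrpl23-ps1 on chromosome 2 took most of the counts of the pair. With the sedentary label Mrpl23 averaged 5.1 ± 0.835 CPM (SD, n = 3) in Flox and 4.95 ± 1.84 in KO, and with the exercise label 6.43 ± 0.806 and 5.32 ± 1.49. The pseudogene averaged 48.4 ± 6.5, 40.5 ± 7.94, 50.5 ± 7.92 and 40.4 ± 5.91 CPM in the same order. Mrpl23 held 8.27% to 15.7% of the counts of both, and reads of near-identical copies are divided by estimation. The other 4 pseudogenes were at or near 0.

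**Figure D1:**
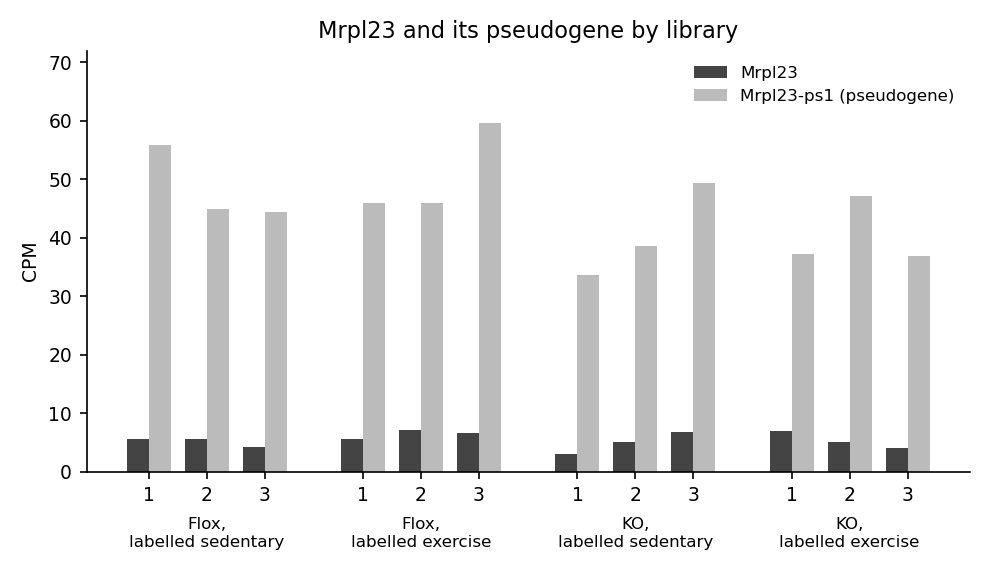
Bars give CPM (TMM-scaled library sizes) of Mrpl23 and of its pseudogene Mrpl23-ps1 in each of the 12 libraries, numbered by replicate within each group. The pseudogene exceeds the gene in every library, and the gene holds 8.27% to 15.7% of the pair.

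Under the sedentary label, nearly all of the family lay lower in KO than in Flox hearts by a small amount, and no gene passed the test. On TMM-scaled values 74 of 78 genes were below 0 (50% of all genes tested), with a median log2 difference of -0.19, against 0.000194 over all genes. The exceptions were Mrps6, Mrpl20 (0.08 ± 0.13), Mrps23 and Mrpl52. In edgeR's quasi-likelihood test 0 of 78 reached an adjusted p of 0.05 (0.125% of all genes did, 19 of 15226). DESeq2 also called 0 of 78 (2.59% of all genes, 394 of 15226). At an unadjusted p under 0.05, 14 were lower (5.41% of all genes) and 1 higher (8.1%). In 25 genes each KO library was below each Flox library (7.93% of all genes), and in 0 above (10.4%).

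That direction depends on how libraries are scaled. Scaled to library totals alone, an alternative added after seeing the data, the median of the 78 was -0.02 and 44 were below 0, while the median over all genes moved to 0.18. By that scaling 2 of 78 did not overlap on the lower side, against 2.11% of all genes. Relative to the median of all genes the family lay at -0.19 in both scalings. Rescaling moves all genes of a library alike, so this agreement was fixed in advance and is no separate support. Summed over the family, levels were 3848 ± 252 CPM (SD, n = 3) in Flox and 3404 ± 158 CPM in KO labelled sedentary with TMM, and 3709 ± 259 and 3704 ± 186 CPM by library totals. When the mean of the atrial markers entered the model, the median was -0.04, with 47 of 78 below 0. On TMM scaling cardiomyocyte markers were 14 of 15 below 0 in KO with this label (median -0.33), and fibroblast markers 10 of 10 above 0 (median 0.71). What part the tissue content of these libraries has in the difference was not tested.

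**Figure D2:**
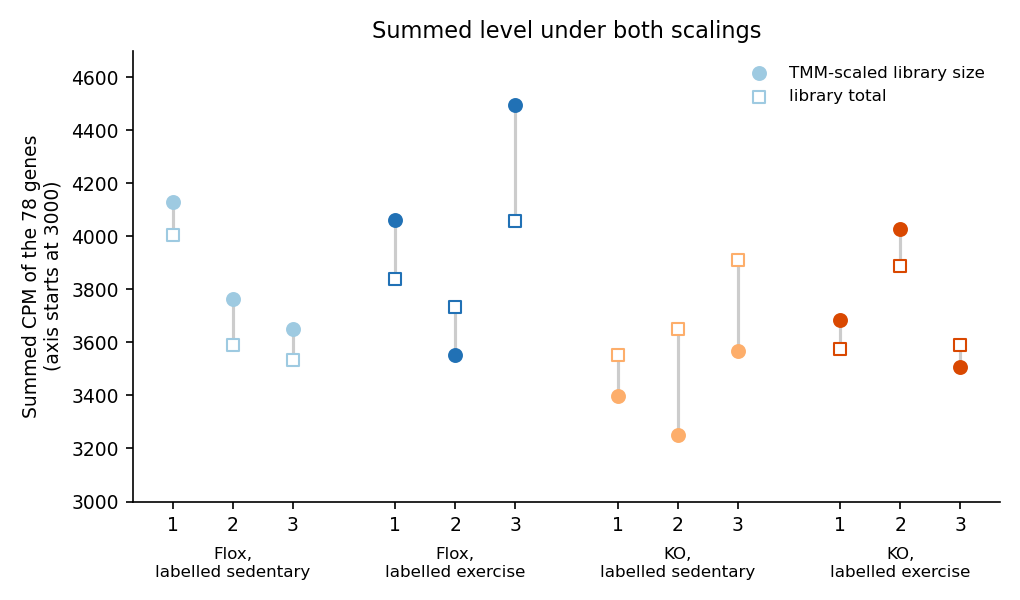
Summed CPM of the 78 genes in each library, as filled circles on TMM-scaled library sizes and open squares on library totals, on an axis that does not start at 0. The KO libraries labelled sedentary sit at 3250 to 3566 with TMM and at 3551 to 3912 by totals.

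Genes of both subunits lay on the same side. The large subunit (51 genes, counting Mrps18a and Mrps30, whose proteins sit there) had a median of -0.19, with 49 below 0, and the small subunit (26 genes) had -0.17, with 24 below 0. Bacterial-type subunits of the large particle had a median of -0.18 (30 genes) and mitochondria-specific ones -0.20 (19 genes). In the small particle these were -0.20 (17 genes) and -0.14 (9 genes). The summed level of the large subunit was 2.33 to 2.4 times that of the small one in the means of the 4 groups. With the sedentary label this ratio was 2.388 to 2.41 in the Flox libraries and 2.316 to 2.349 in the KO libraries, without overlap. The small sum includes Mrps6, which read 22.3, 41.1 and 65.2 CPM in KO and 24.5 to 27.3 CPM in Flox with that label. A ratio without Mrps6 is not given, so this small difference may rest on that gene, and it was not tested.

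Mrpl37, a mitochondria-specific subunit of the large particle (chromosome 4, 107055874 to 107066868), had the smallest p. Its CPM was 69.9, 69.6 and 68.1 in Flox labelled sedentary and 63.1, 50.1 and 48.8 in KO labelled sedentary. All 3 KO values were below all 3 Flox values, and the first KO library was the nearest. The log2 difference was -0.36 ± 0.12 (SE; adjusted p = 0.216, edgeR). Under the exercise label Mrpl37 was 71.6, 62.0 and 79.1 in Flox and 68.4, 72.6 and 65.0 in KO, and there the groups overlapped.

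Mrps11, a bacterial-type protein of the small subunit platform (chromosome 7, 78783119 to 78792989), was 18.4, 17.6 and 15.0 CPM in Flox and 13.3, 13.0 and 13.3 CPM in KO labelled sedentary. The KO libraries were close to one another and all below Flox, with a log2 difference of -0.36 ± 0.12 (SE; adjusted p = 0.219, edgeR). Mrpl46, the head-to-head neighbour of Mrps11, read 27.9, 27.3 and 25.8 CPM in Flox and 26.6, 21.8 and 25.3 CPM in KO. Its groups overlapped, at -0.14 ± 0.12. Mrpl14, named here after its values were seen because its difference was the lowest of the 78, was 65.6, 59.1 and 48.6 CPM in Flox and 39.4, 41.3 and 45.5 CPM in KO without overlap (log2 difference -0.46 ± 0.16, adjusted p = 0.246, edgeR).

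Mrps6, a bacterial-type protein of the small subunit (chromosome 16, 92058270 to 92112227), had the largest difference between genotypes and the opposite sign. It read 27.3, 24.5 and 27.3 CPM in Flox and 22.3, 41.1 and 65.2 CPM in KO labelled sedentary. KO libraries 2 and 3 were the highest of all 12 and KO library 1 was the lowest of all 12, so the groups overlapped. Under the exercise label the values were 28.4, 25.7 and 24.8 CPM in Flox and 27.9, 24.2 and 28.5 CPM in KO, a narrow band. The log2 difference under the sedentary label was 0.70 ± 0.28 (SE; adjusted p = 0.316, edgeR). Without the first KO library labelled sedentary it was 0.995 with an adjusted p of 0.0136, and Mrpl37 also passed, at -0.50 with 0.0299, while 479 of all genes did (3.07%). Without the third KO library it was 0.26, and with the atrial markers in the model it was 0.35 ± 0.37 (adjusted p = 0.999, edgeR).

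Mrps6 shares part of its first exon with Slc5a3, the sodium/myo-inositol cotransporter, which lies within the Mrps6 gene on the same strand. The shared stretch spans 159 bases (chr16:92058322-92058480), where reads fit both genes. Slc5a3 was 3.25, 3.1 and 5.15 CPM in Flox and 4.82, 10.2 and 15.3 CPM in KO labelled sedentary, and 3.56 to 7.89 CPM under the exercise label. It was highest in the same 2 libraries as Mrps6. The atrial marker mean was also highest in those 2, at 6.95 and 7.57 log2 CPM, and 4.66 in the first KO library. The part of Slc5a3 reads in the value of Mrps6 was not tested.

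**Figure D3:**
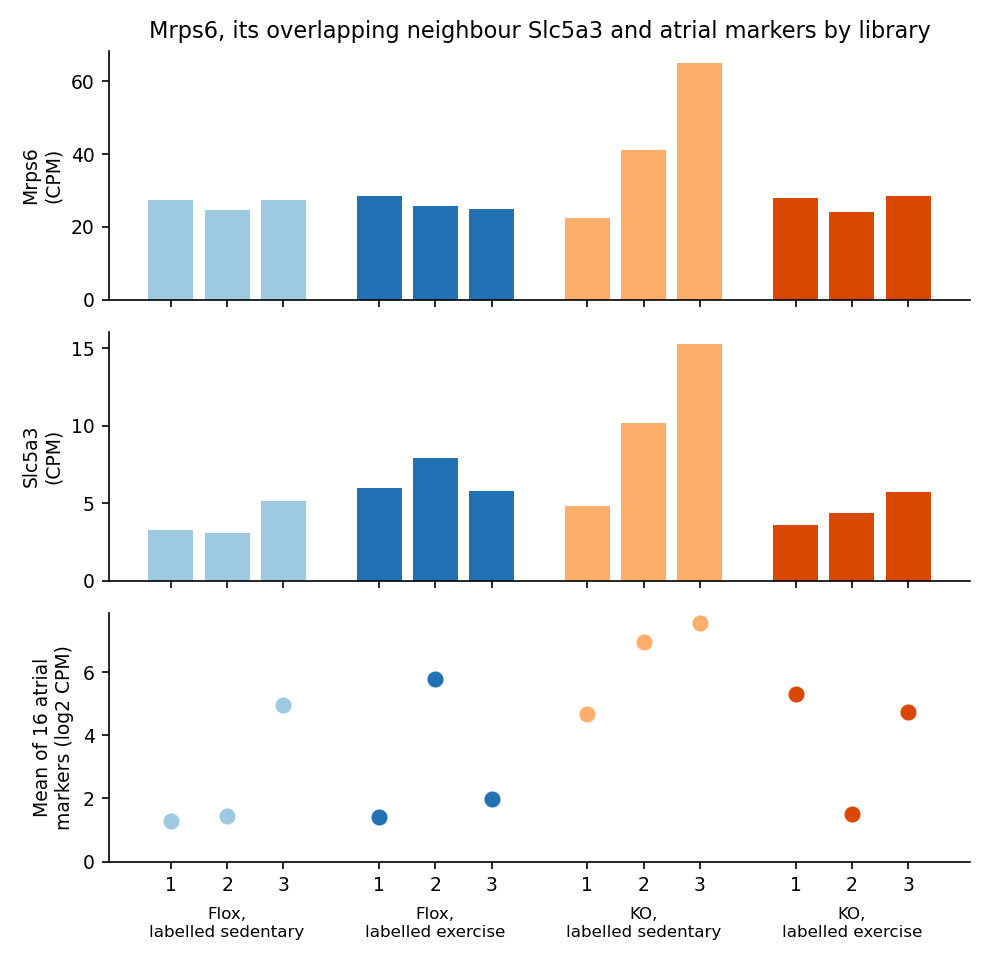
Mrps6 (CPM, bars), Slc5a3 (CPM, bars) and the mean of 16 atrial markers (log2 CPM, points) in each of the 12 libraries. KO labelled sedentary 2 and 3 are highest in all 3 panels, at 41.1 and 65.2 CPM for Mrps6.

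The list of stalk proteins held Mrpl10, Mrpl11 and Mrpl12, of the stalk that contacts translation factors, and Mrpl1, of a separate stalk. Of these, 4 of 4 were below 0 with a median of -0.19. Mrpl12, the mobile arm of the factor-contacting stalk, was 171, 150 and 139 CPM in Flox and 137, 122 and 131 CPM in KO labelled sedentary. The groups just did not overlap (log2 difference -0.24 ± 0.13). Mrpl10, the base of that stalk, was 48.0, 45.6 and 44.2 CPM in Flox and 44.4, 38.3 and 40.7 CPM in KO. There the first KO library reached into the Flox range (-0.16 ± 0.09). Around the exit tunnel 6 of 6 were below 0, with a median of -0.12. Mrpl45, which anchors the particle at the inner membrane, was 70.9, 53.5 and 50.8 CPM in Flox and 56.6, 41.4 and 43.5 CPM in KO, with overlap (-0.31 ± 0.17). Of the central protuberance, which joins the subunits at the top, 4 of 4 were below 0 with a median of -0.14.

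Mrpl44, a cardiomyopathy gene, was 47.4, 42.9 and 42.9 CPM in Flox and 43.3, 37.6 and 34.7 CPM in KO labelled sedentary, with the first KO library inside the Flox range (-0.20 ± 0.11). Mrpl3, the other one, was 78.3, 74.4 and 77.9 CPM in Flox and 72.4, 67.0 and 62.6 CPM in KO, without overlap (-0.19 ± 0.10). Mrps12, at the decoding centre, was 32.4, 27.6 and 27.7 CPM in Flox and 25.2, 27.8 and 28.3 CPM in KO, with overlap (-0.11 ± 0.11). The trio that descends from the bacterial protein S18 differed little among themselves, at -0.23 ± 0.17 for Mrps18a, -0.22 ± 0.15 for Mrps18b and -0.23 ± 0.17 for Mrps18c. Mrpl58, a peptidyl-tRNA hydrolase built into the large subunit, stood at -0.27 ± 0.17 and Mrps30 at -0.23 ± 0.13. Mrps36, the subunit reassigned to the oxoglutarate dehydrogenase complex, stood at -0.20 ± 0.14. None of these passed the adjusted threshold.

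Under the exercise label most of the family again lay lower in KO than in Flox hearts by a small amount, and no gene passed the test. Of 78 genes 62 lay below 0 in KO (51.2% of all genes tested), with a median of -0.12, against -0.00729 over all genes. Adjusted p-values called 0 of 78 in edgeR (0.00657% of all genes, Cited4 alone) and 0 in DESeq2 (0.0657%). Unadjusted, 4 were lower (4.07% of all genes) and 0 higher (3.87%), and in 2, Mrpl46 and Mrps36, all KO libraries were below all Flox libraries (7.23% of all genes), with 0 of 78 above (7.61%). By library totals the median was -0.08 with 58 below 0, and 6 genes did not overlap on the lower side (5.81% of all genes) and 2 on the higher (7.63%). Endothelial markers were 9 of 9 below 0 in KO here, with a median of -0.34 and none past the adjusted threshold, and their part in the difference was not tested. Without the third Flox library labelled exercise the median was -0.01, with 43 below 0. The large subunit had a median of -0.11 and the small subunit -0.12. In the small subunit 5 of 9 mitochondria-specific genes and 14 of 17 bacterial-type genes were below 0.

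Mrpl46, of the central protuberance, was 34.9, 27.2 and 36.1 CPM in Flox and 27.1, 26.8 and 26.3 CPM in KO labelled exercise. The second Flox library nearly met the KO values and the other 2 stood apart (-0.29 ± 0.12, adjusted p = 0.601, edgeR). Mrps12 was 33.9, 28.8 and 36.1 CPM in Flox and 27.1, 28.8 and 26.0 CPM in KO, the second libraries of both groups being level (-0.27 ± 0.11, adjusted p = 0.601, edgeR). On the higher side Mrpl16, a large subunit protein next to the catalytic centre, was 53.0, 45.9 and 56.7 CPM in Flox and 62.3, 67.8 and 50.8 CPM in KO, with overlap (0.22 ± 0.11, adjusted p = 0.672, edgeR). Mrpl10 stood at 0.14 ± 0.09.

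**Figure D4:**
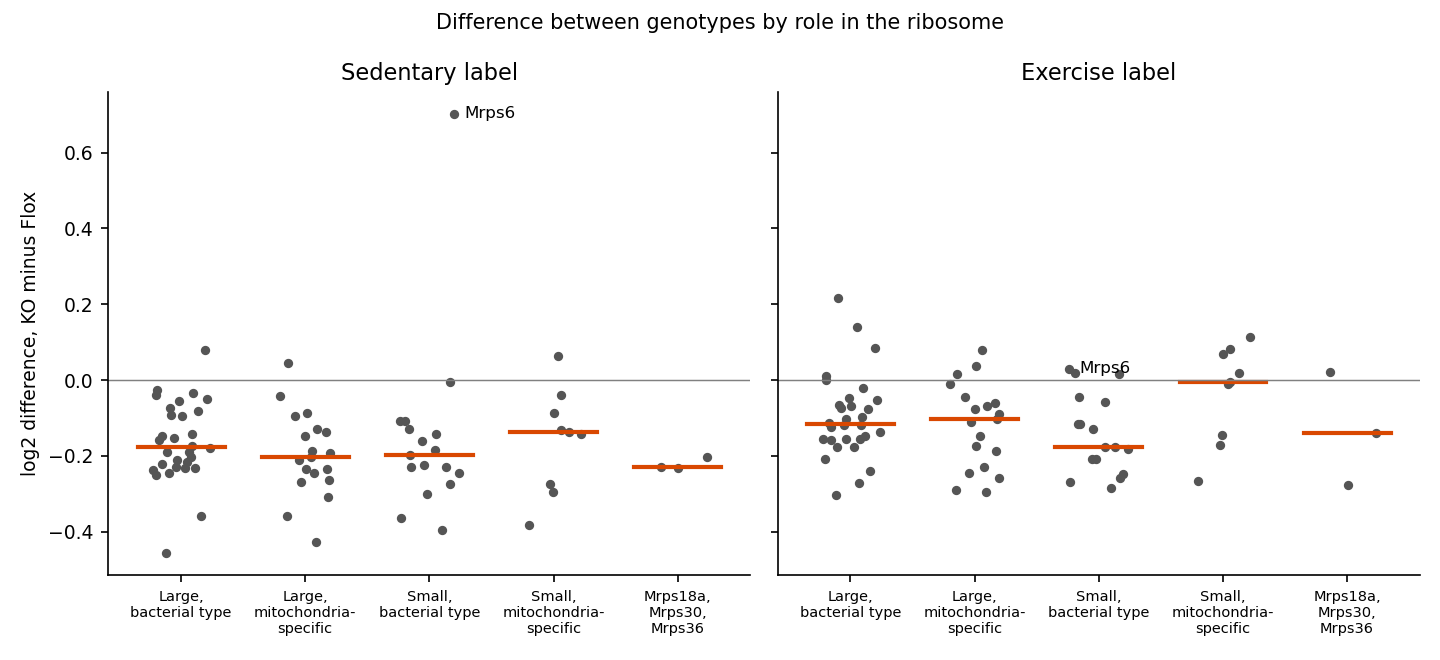
Each point is a gene's log2 difference, KO minus Flox, under the sedentary label (left) and the exercise label (right), by role in the ribosome, with the group's median as a line (edgeR, TMM scaling). Under the sedentary label 74 of 78 points lie below 0 and Mrps6 stands apart at 0.70, while under the exercise label 62 lie below 0. By library totals the sedentary median is -0.02.

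In Flox, the exercise label went with slightly higher values for most of the family, and no gene passed the test. Of 78 genes 60 were above 0 (51.4% of all genes tested), with a median of 0.08. Adjusted p-values called 0 of 78 in edgeR (0% of all genes) and 0 in DESeq2 (0.322%). Unadjusted, 1 was higher (3.86% of all genes), Mrpl46 at 0.28 ± 0.12, and 0 were lower (3.56%). On TMM scaling the groups separated in 0 of the 78 (6.57% of all genes on the lower and 7.5% on the higher side), and by library totals in 2 on the lower (5.87%) and 1 on the higher side (6.36%). In this comparison 10 of 10 fibroblast markers (median 0.46) and 9 of 9 macrophage markers (median 0.64) were above 0. Of 15 cardiomyocyte markers, 13 were below 0 (median -0.14). None of these markers passed the adjusted threshold, and their part was not tested. Mrps33, a mitochondria-specific small subunit protein, was next at 0.23 ± 0.13, with 48.6, 44.0 and 43.9 CPM labelled sedentary and 53.8, 43.7 and 63.0 CPM labelled exercise. On the lower side Mrpl16 stood at -0.12 ± 0.11 and Mrpl10 at -0.09 ± 0.09. The direction of the family rested on 1 library: without the third Flox library labelled exercise the median was -0.02 and 34 were above 0. That library had the highest summed level of the 12 at 4495 CPM, and 75 of the 78 genes above their own mean. This comparison shares its Flox libraries labelled exercise with the genotype comparison under that label. Lower values in KO there and higher values here, for Mrpl46 and for the family, are thus not separate observations.

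In KO the exercise label went with higher values across the family on TMM scaling, again with no gene past the test. Of 78 genes 72 were above 0 (49.3% of all genes tested), with a median of 0.15, against -0.00422 over all genes. Adjusted p-values called 0 of 78 in edgeR (0.0197% of all genes) and 0 in DESeq2 (0.749%). Unadjusted, 9 were higher (4.35% of all genes) and 1 lower (6.27%), and 15 did not overlap on the higher side (5.82%) and 0 on the lower (7.31%). By library totals the median was 0.00419 with 42 above 0, and the median over all genes was -0.15. By that scaling 1 gene did not overlap on the higher side (1.66% of all genes) and 1 on the lower (16.4%). With the atrial covariate the median of the 78 was 0.04. On TMM scaling cardiomyocyte markers were 15 of 15 above 0 (median 0.23) and atrial markers 15 of 16 below 0 (median -2.22), and their part was not tested. This comparison shares its KO libraries labelled sedentary with the genotype comparison above, so the 69 genes below 0 there and above 0 here are one observation and not 2.

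Mrpl37 led this comparison at 0.35 ± 0.12 (adjusted p = 0.36, edgeR), from 63.1, 50.1 and 48.8 to 68.4, 72.6 and 65.0 CPM, with every library labelled exercise above every one labelled sedentary. Mrps11 followed at 0.34 ± 0.12 (adjusted p = 0.382, edgeR), its 18.6, 14.2 and 17.5 CPM lying above 13.3, 13.0 and 13.3. On the lower side stood Mrps6 at -0.68 ± 0.28 and Mrpl30, of the large subunit, at -0.05 ± 0.14. Mrpl30 was 104, 120 and 137 CPM labelled sedentary and 112, 114 and 123 CPM labelled exercise, fully overlapping. Without the first KO library labelled sedentary, Mrps6 (-0.97, adjusted p = 0.0158) and Mrpl37 (0.49, adjusted p = 0.0319) passed in edgeR, among 566 of all genes (3.63%).

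The interaction, the exercise difference in KO minus that in Flox, had a median of 0.06 over the 78 genes on TMM scaling and -0.08 by library totals. By TMM 57 were above 0 (47.9% of all genes tested) and 21 below (52.1%), and by library totals 25 were above 0. Leaving out Flox library 1 of the sedentary label, or Flox or KO library 2 of the exercise label, put the median just below 0. Adjusted p-values called 0 of 78 in edgeR (0% of all genes) and 0 in DESeq2 (0.315%). At an unadjusted p under 0.05 in edgeR, 0 were lower (5.52% of all genes) and 2 higher (4.37%). These were Mrpl16 at 0.42 ± 0.16 (adjusted p = 0.467, edgeR) and Mrpl10 at 0.30 ± 0.13 (adjusted p = 0.5, edgeR). With the sedentary label Mrpl16 was 57.1, 57.6 and 54.4 CPM in Flox and 50.9, 46.9 and 49.1 CPM in KO, and its values with the exercise label are given above. It was thus lower on average with exercise in Flox and higher in KO, with overlapping groups in both. On the other side Mrps6 stood at -0.67 ± 0.40 and Mrps12 at -0.16 ± 0.15.

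The genes tended to lie high or low together in a library. Against its own mean over 12 libraries, the median gene deviated by 0.12, 0.02 and -0.03 log2 units in Flox labelled sedentary, and 0.12, -0.07 and 0.27 in Flox labelled exercise. In the KO libraries it deviated by -0.14, -0.22 and -0.11 with the sedentary label and by -0.01, 0.11 and -0.08 with the exercise label. KO labelled sedentary was thus the only group with all libraries below 0 on this scale, where 60, 74 and 51 of the 78 were below their own mean. Within Flox labelled exercise, libraries 2 and 3 differed by more than did the means of any 2 groups. By library totals the KO libraries labelled sedentary lay at -0.08, -0.05 and 0.02.

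**Figure D5:**
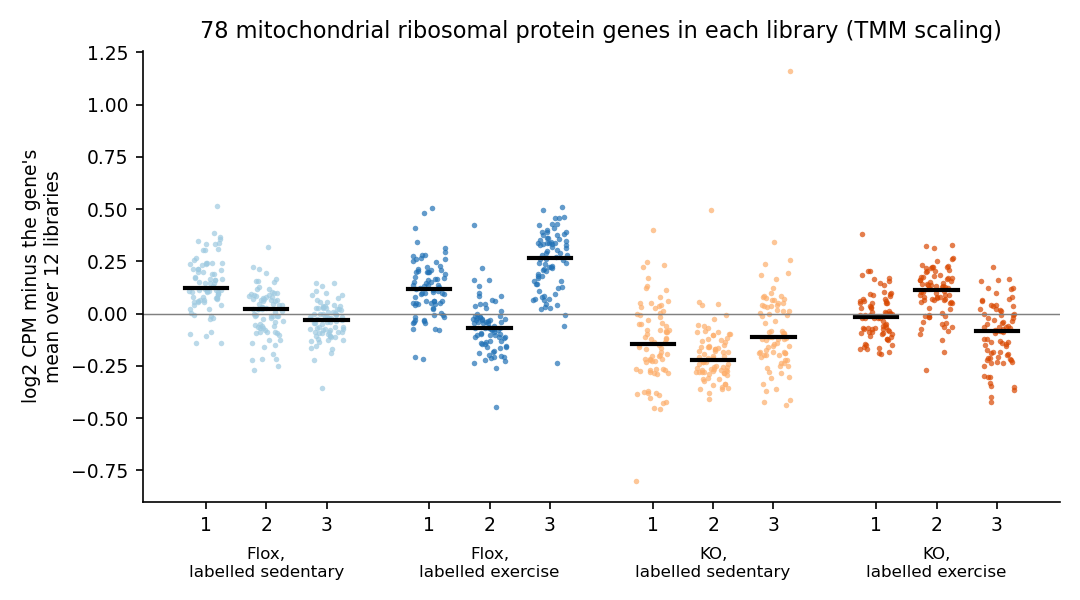
Each point is 1 of the 78 genes, as log2 CPM (TMM scaling) minus that gene's mean over the 12 libraries, and lines are medians per library. The medians run from -0.22 in KO labelled sedentary 2 to 0.27 in Flox labelled exercise 3, and the highest single point is Mrps6 in KO labelled sedentary 3.

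Single genes varied to unequal degrees. The SD of log2 CPM over 12 libraries was largest for Mrps6 (0.42) and Mrpl23 (0.36) and smallest for Mrps5 (0.08) and Mrps25 (0.09), with a median of 0.18. Mrps5 ran from 36.9 to 44.4 CPM and was lowest in KO libraries 2 and 3 with the sedentary label. Mrps25 ran from 41.0 to 50.5 CPM with no group apart from the others.

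Other parts of the mitochondrial translation system lay on the same side under the sedentary label, and none of their genes passed the adjusted threshold in any of the 5 comparisons. Subunits with other names (Dap3, Chchd1, Aurkaip1, Ptcd3, Gadd45gip1) were 5 of 5 below 0 in KO, with a median of -0.195, Dap3 standing at -0.29 ± 0.11. Translation factors were 12 of 13 below 0 with a median of -0.22. The elongation factor Tufm stood at -0.32 ± 0.14, and the membrane insertase Oxa1l at -0.23 ± 0.09. Mitochondrial tRNA synthetases were 16 of 17 below 0 (median -0.19), assembly factors 16 of 20 (median -0.10), and genes of mitochondrial transcription and RNA handling 13 of 14 (median -0.15). Of regulators of mitochondrial biogenesis 8 of 11 were below 0 with a median of -0.16, Ppargc1a at -0.26 ± 0.14, Gabpa at -0.16 ± 0.12 and Nrf1 at 0.09 ± 0.11. Library totals shift all these values upward with the median of all genes.

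The organelle's own transcripts lay on that side as well. Of 13 mitochondrially encoded messages 12 were below 0 in KO labelled sedentary, with a median of -0.285, mt-Co1 at -0.28 ± 0.14 and mt-Nd6 at -0.54 ± 0.16. The ribosomal RNAs mt-Rnr1 (-0.46 ± 0.24) and mt-Rnr2 (-0.35 ± 0.22) were below 0 too, in libraries from which ribosomal RNA had been depleted. Cytosolic ribosomal proteins lay on the other side, 65 of 81 being above 0 under the sedentary label with a median of 0.09. Under the exercise label the ribosomal RNAs mt-Rnr1 (-0.62 ± 0.24) and mt-Rnr2 (-0.59 ± 0.22) were below 0 (adjusted p = 0.601 for both, edgeR). Their mean was 12.6, 11.5 and 12.5 log2 CPM in Flox and 11.5, 11.6 and 11.8 in KO. The groups thus overlapped, with Flox libraries 1 and 3 apart from the rest. Subunits with other names were 4 of 5 below 0 (median -0.13), assembly factors 14 of 20 (median -0.07) and mitochondrially encoded messages 8 of 13 (median -0.09). Genes of mitochondrial transcription and RNA handling were 9 of 14 above 0 (median 0.04) and biogenesis regulators 7 of 11 (median 0.12). Translation factors had a median of 0.06 (8 of 13 above 0), tRNA synthetases 0.05 (10 of 17 above 0) and cytosolic ribosomal proteins -0.215 (78 of 81 below 0). Whether these lists differ from the 78 genes was not tested.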

How the data were processed

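Mouse whole-heart RNA was sequenced in 12 libraries after ribosomal RNA depletion (RiboZero and NEB kits, per the labels' protocols). The values the authors deposited are estimated counts by gene symbol, with no scaling across libraries. FastQC and Salmon are named in the submitters' processing notes without version, with the builds mm9 and mm10. The annotation, its strand setting and how transcripts were joined into genes were not given in the sources used here. Of 55874 entries, 1688 naming vectors, primers or spike-ins (3.87e-05% to 0.186% of counts) were left out.

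Rounded counts went into edgeR 4.0.16 (R 4.3.3), with low genes removed by filterByExpr, TMM factors, 1 mean per group over all 12 libraries, robust glmQLFit and glmQLFTest. P-values were adjusted by Benjamini-Hochberg over 15226 genes, with a threshold of 0.05. SEs come from the log2 difference and F. CPM uses TMM-scaled library sizes; log2 CPM has a prior count of 2. The steps were tested on simulated data. Lengths and positions come from GENCODE M21, with the median length of protein-coding transcripts. Alternatives were DESeq2 1.42.0, RLE factors, no filter, no mitochondrial genes, fits of 2 groups, a replicate block, an atrial covariate and each library left out. Library totals, and Mrpl23 summed with its pseudogene, were added after seeing the data.

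The 78 genes and all lists were chosen with earlier results of these data known. Genes named are those past the threshold, the 2 with the smallest p per direction and comparison, the 3 highest and lowest by level, the extremes of spread, and 12 fixed for their role. Others, such as Mrpl14, Mrps23, Mrpl52 and the genes of other lists, were named after their values were seen.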

Additional observations from a re-analysis of the deposited data

How the results depend on the processing

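The count of genes called stayed at 0 of 78 in each comparison under DESeq2, RLE factors, no filter, no mitochondrial genes, fits of 2 groups (not run for the interaction, which needs all 4), the atrial covariate, library totals and Mrpl23 summed with its pseudogene. Leaving out single libraries gave 0 to 2 called for KO over Flox labelled sedentary and for exercise in KO (2 without KO labelled sedentary 1), and 0 in the others. With the replicate number as a block the median log2 difference was -0.19, -0.11, 0.07, 0.16 and 0.07 in the order KO over Flox labelled sedentary and exercise, exercise in Flox and KO, and interaction, with 0 called. The labels do not say that the replicate numbers mark animals or batches, so the numbers were not taken as pairing. Deviations of same-numbered libraries had a correlation over 0.1 in 6 of 18 pairs (r from -0.319 to 0.306). Differently numbered libraries are not set beside them, so these correlations cannot decide whether libraries were paired. The block moved the count over all genes from 19 to 37 for KO over Flox labelled sedentary.

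Medians that moved were -0.0381 (atrial covariate) and -0.0156 (library totals) for KO over Flox labelled sedentary, and 0.037 and 0.00419 for exercise in KO. The interaction turned to -0.0651 and -0.0803. Over single libraries left out, medians ran from -0.222 to -0.143, -0.18 to -0.0128, -0.018 to 0.149, 0.0737 to 0.189 and -0.0024 to 0.152 in the order above. The interaction turned without Flox labelled sedentary 1 (-0.000254), Flox labelled exercise 2 (-0.0024) and KO labelled exercise 2 (-0.000756), and exercise in Flox without Flox labelled exercise 3 (-0.018). Mrpl30 for exercise in KO turned to 0.0612 without KO labelled sedentary 3 (range -0.13 to 0.0612). The atrial covariate and library totals change the adjustment itself; the cause of the other turns was not tested.

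Over all genes, DESeq2 called 394, 10, 49, 114 and 48 against 19, 1, 0, 3 and 0 in edgeR. Without a filter 120, 4, 2, 30 and 1 were called, and 39, 1, 2 and 5 in fits of 2 groups. Library totals gave 100, 1, 0, 36 and 0. With 3 libraries a group the median SE of the 78 genes was 0.13 log2 units between groups and 0.18 for the interaction, which limits what could pass.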
